A study of Mus musculus with 6 samples.

Results

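Genes that mark or steer the passage between the epithelial and the mesenchymal state were followed in basal cells of the mouse prostate. They are the mesenchymal filament gene Vim, the regulators Zeb1, Zeb2, Snai1, Snai2 and Twist1, the classical cadherins Cdh1, Cdh2 and Cdh3, and the epithelial adhesion gene Epcam. They were chosen by name, all 10 had a value among the 25264 genes with one, and 6 of them reached the mean of 1 FPKM needed for the test. FPKM counts fragments relative to transcript length and library size, so levels of different genes can be set side by side.

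The study compared 3 libraries of basal cells from the proximal ducts, which lie nearest the urethra, with 3 libraries of basal cells from the distal ducts, which lie toward the gland tips. Both groups came from C57BL/6 mice of 8 to 12 weeks, with no treatment or engineered allele named in the labels. The protocols describe dissociation, antibody staining and cell sorting, and also the culture of prostate stromal cells, but give neither the gate for basal cells nor how many animals stand behind a library. If the libraries of a group are not from separate animals, the p-values below reflect technical spread only.

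Epithelial cells hold together through classical cadherins, whose cytoplasmic tails bind catenins and through them the actin cytoskeleton. In epithelial-mesenchymal transition, zinc finger and helix-loop-helix repressors of the Snail, Zeb and Twist families bind E-box sequences in the promoters of epithelial genes, E-cadherin falls, and N-cadherin and vimentin rise. Basal cells of stratified and glandular epithelia are known to carry P-cadherin and the Snail family member Snai2 while remaining epithelial, and fibroblasts, endothelial cells, pericytes and glia carry vimentin in abundance.

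Promoter windows of 250 bases before the transcription start are shown for Vim and Epcam, the members above 1 FPKM whose proximal and distal values did not overlap. Both are on the plus strand, were taken from RefSeq on build GRCm38.p6, the assembly of mm10, and are written 5′ to 3′. Capitals mark the E-box CAGGTG, read on either strand and therefore also as CACCTG, or the TATA box letters TATAAA, read on either strand.
Vim, chr2:13574061-13574310: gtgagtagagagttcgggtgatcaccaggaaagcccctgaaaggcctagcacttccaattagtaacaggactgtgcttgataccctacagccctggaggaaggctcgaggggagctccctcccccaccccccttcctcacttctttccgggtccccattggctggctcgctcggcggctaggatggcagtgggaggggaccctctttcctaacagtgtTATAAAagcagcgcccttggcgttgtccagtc
Epcam, chr17:87635729-87635978: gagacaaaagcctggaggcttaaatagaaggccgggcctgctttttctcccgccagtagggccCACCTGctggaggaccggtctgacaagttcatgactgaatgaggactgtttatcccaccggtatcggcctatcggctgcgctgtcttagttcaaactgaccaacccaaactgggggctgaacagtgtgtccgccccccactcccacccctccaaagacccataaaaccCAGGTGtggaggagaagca
The Epcam window held 2 E-boxes, beginning 187 and 19 bases before the start. The Vim window held no E-box and 1 TATAAA, beginning 32 bases before the start. Among 32851 RefSeq windows of this length, 17.2% held the E-box and 12.4% held TATAAA. Entries were used for 5 members, Vim, Zeb2, Snai1, Twist1 and Epcam, and 2 of these, Epcam and Snai1, had an E-box. There was no entry for Cdh1, Cdh3 and Snai2, and those of Zeb1 and Cdh2 were not used here. A match to these letters is a description of the window and not a measured binding site.

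Depth derived from the deposited intervals was 22000000 to 26900000 fragments in proximal and 21600000 to 27700000 fragments in distal libraries. Of 10255 genes tested across the series, 464 were higher and 256 were lower in proximal cells, 7.02% in all (limma, Benjamini-Hochberg adjusted p under 0.05). The regions parted on principal component 1 (47.2% of variance), and both libraries numbered 1 stood apart on component 2 (25.4%). Basal markers were abundant, with Krt14 at 2121 to 2276 FPKM in proximal libraries and 2283 to 3397 FPKM in distal ones, and 4 of 10 rose (Krt5, Lamb3, Col17a1 and Krt15), although none did without replicate 2 or 3 of either region. The luminal keratin Krt18 was abundant too, at 1218 to 1373 FPKM in proximal libraries and 1076 to 1628 FPKM in distal ones, and of 10 luminal markers 3 rose (Msmb, Psca and Cldn3) and 1 fell. Of 14 genes known to respond to tissue dissociation, Ier2 and Junb fell and none rose, and all 14 log2 fold changes were below 0, with a median of -0.91. The count that fell was 11 without distal replicate 1, 13 without both libraries numbered 1, 1 without distal replicate 2 or 3 or proximal replicate 3, and 0 without proximal replicate 2. The summed list was at 6902 to 8804 FPKM in proximal libraries and 9574 to 17858 FPKM in distal ones. The part of this difference in the values below was not tested.

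Vim rose in the proximal basal libraries and was the 1 member called among the 6 tested, none being lower, against 4.52% of all genes called higher and 2.50% called lower. Vimentin is the type III intermediate filament protein of mesenchymal cells. Vim was at 23.1, 27.3 and 23.7 FPKM in the proximal libraries, against 8.42, 5.69 and 7.22 FPKM in the distal libraries. The lowest proximal library lay well above the highest distal one. The mean in proximal cells was 3.47 times that in distal cells (24.7 ± 2.29 FPKM proximal and 7.11 ± 1.37 FPKM distal, SD, n = 3 each). On the log2(FPKM + 1) scale, which understates changes of weakly expressed genes, its fold change was 1.67 ± 0.15 (SE, limma, adjusted p = 0.000867). Its single listed transcript of 1834 bases (chromosome 2, 13574311 to 13582826, mm10) overlapped no other, and the deposited intervals of the libraries ran from 21.6 to 29.0 FPKM in proximal and from 5.00 to 9.37 FPKM in distal cells. Vim stood 2497th by mean level in proximal and 5650th in distal cells among 18567 genes with a value above 0.

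**Figure D1:**
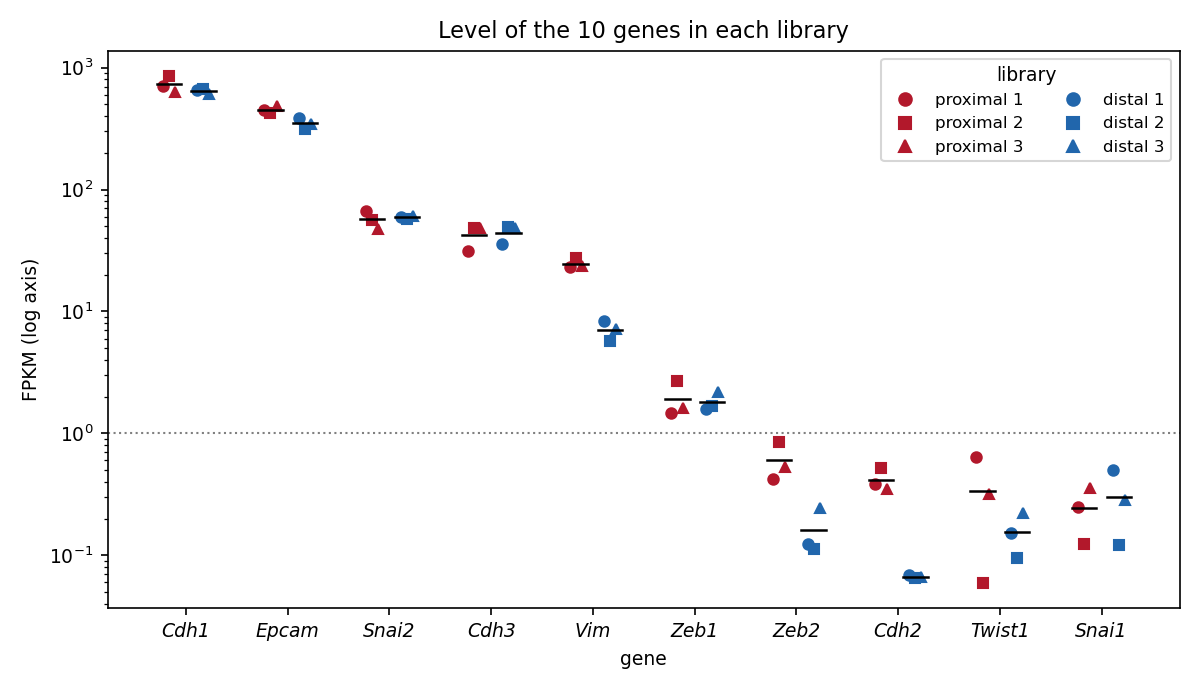
FPKM on a log axis of the 10 genes in each library, proximal (red) left of distal (blue), with a bar at each group's mean and a dotted line at 1 FPKM. Vim lies at 23.1 to 27.3 FPKM in proximal and 5.69 to 8.42 FPKM in distal libraries, while Cdh1 lies at 635 to 853 FPKM in proximal and 612 to 665 FPKM in distal libraries.

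E-cadherin, encoded by Cdh1 (chromosome 8, 106603351 to 106670246, mm10), was the most abundant of the 10 in both regions. It was at 713, 853 and 635 FPKM in proximal and at 655, 665 and 612 FPKM in distal libraries. The ranges overlapped, and the log2 fold change of 0.18 had a 95% interval from -0.14 to 0.50 and was not called (limma, adjusted p = 0.479). By mean level it stood 52nd in proximal and 68th in distal cells. The widths of its deposited intervals correspond to 2281 to 2288 fragments in proximal and 2267 to 2287 in distal libraries. Epcam, with a lower FPKM and a shorter transcript (2061 against 4413 bases), corresponds to 15853 to 25307 fragments. The Cdh1 widths thus do not follow its FPKM, on which its level, rank and ratios rest. The cause was not tested. Per unit of Vim, Cdh1 stood at 30.9, 31.2 and 26.8 in the proximal libraries against 77.8, 117 and 84.8 in the distal libraries. P-cadherin, encoded by the neighbouring gene Cdh3 (chromosome 8, 106510891 to 106557297), was at 31.5, 48.0 and 48.2 FPKM in proximal and at 35.6, 48.9 and 48.2 FPKM in distal libraries. Its lowest value in each region was in the library numbered 1, and it did not pass (log2 fold change -0.07, 95% interval -0.51 to 0.38, limma, adjusted p = 0.878). Cdh3 was listed as 2 transcripts that differ in length by 3 bases, and the longer one held 80.4% to 86.9% of its FPKM in proximal and 84.1% to 89.7% in distal libraries.

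N-cadherin, the cadherin of neurons, glia, muscle and fibroblasts, was scarce. Cdh2 (chromosome 18, 16588877 to 16809246) was at 0.386, 0.518 and 0.351 FPKM in proximal libraries, against 0.0683, 0.0647 and 0.0665 FPKM in distal libraries. The groups were far apart relative to their spread, but the widths of the deposited intervals correspond to only 44, 53 and 44 fragments in proximal and 7, 7 and 6 fragments in distal libraries. The mean in proximal cells was 6.29 times the mean in distal cells. Cdh2 lay below the level needed for the main test and rose in the fit with no expression filter (log2 fold change 0.41 ± 0.05 SE, limma, adjusted p = 0.0167), where 2.98% of 18567 genes were called and 2.24% were called higher. That call ended on leaving out any 1 distal library (adjusted p = 0.0510, 0.116 and 0.108 without distal replicates 1, 2 and 3) or both libraries numbered 1 (adjusted p = 0.0889). Even so, by deposited FPKM Cdh1 exceeded Cdh2 by 1646 to 1847 times in proximal and 9211 to 10283 times in distal libraries.

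Epcam, which encodes an adhesion protein of simple and progenitor epithelia (chromosome 17, 87635979 to 87651129), was at 445, 422 and 486 FPKM in proximal and at 390, 316 and 344 FPKM in distal libraries. All proximal libraries were above all distal ones, as for 15.8% of the genes tested, while 28.8% did not overlap in either direction. Proximal cells averaged 451 ± 32.0 FPKM and distal cells 350 ± 37.2 FPKM (SD, n = 3 each), and the difference missed the threshold (log2 fold change 0.37, 95% interval 0.09 to 0.65, limma, adjusted p = 0.114). It passed when the values were quantile normalised (adjusted p = 0.0383) and without both libraries numbered 1 (adjusted p = 0.0337).

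Among the regulators, Snai2, or Slug, a zinc finger repressor of the Snail family, was by far the most abundant. It was at 66.9, 56.3 and 47.4 FPKM in proximal and at 59.9, 57.4 and 61.0 FPKM in distal libraries, so the proximal values lay on both sides of the distal ones. It did not pass (log2 fold change -0.08, 95% interval -0.38 to 0.23, limma, adjusted p = 0.778). Snai1, the founding family member, was at 0.251, 0.124 and 0.355 FPKM in proximal and at 0.501, 0.123 and 0.284 FPKM in distal libraries, with overlapping ranges. Snai2 exceeded Snai1 by 133 to 456 times in proximal and 119 to 468 times in distal libraries, over intervals that for Snai1 correspond to 4 to 14 and 5 to 16 fragments.

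The zinc finger and homeobox repressor Zeb1 (chromosome 18) was at 1.48, 2.68 and 1.62 FPKM in proximal and at 1.59, 1.68 and 2.20 FPKM in distal libraries. Its ranges overlapped and it did not pass (log2 fold change 0.03, 95% interval -0.40 to 0.47, limma, adjusted p = 0.934). The level is a sum over 4 listed transcripts, and the one of 1950 bases was listed at 0 in replicate 3 of both regions. Zeb2, its relative with the same domains, was at 0.420, 0.855 and 0.527 FPKM in proximal and at 0.125, 0.112 and 0.245 FPKM in distal libraries. Those groups did not overlap, and the means differed 3.74-fold, but Zeb2 did not pass in the fit with no expression filter (limma, adjusted p = 0.0868). The Zeb2 level is a sum over 6 listed transcripts. The one of 9235 bases was listed at 0.264 FPKM in proximal replicate 1 and at 0 in proximal replicate 2. The one of 8895 bases was listed at 0 in proximal replicate 1 and at 0.484 FPKM in proximal replicate 2. Twist1, a helix-loop-helix factor, was at 0.640, 0.0598 and 0.319 FPKM in proximal and at 0.152, 0.0950 and 0.220 FPKM in distal libraries. Its highest value rested mostly on a short second transcript of 621 bases, listed at 0.521 FPKM in proximal replicate 1 and at 0 in the rest. In the fit with no expression filter Twist1 and Snai1 did not pass (limma, adjusted p = 0.576 and 0.822).

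**Figure D2:**
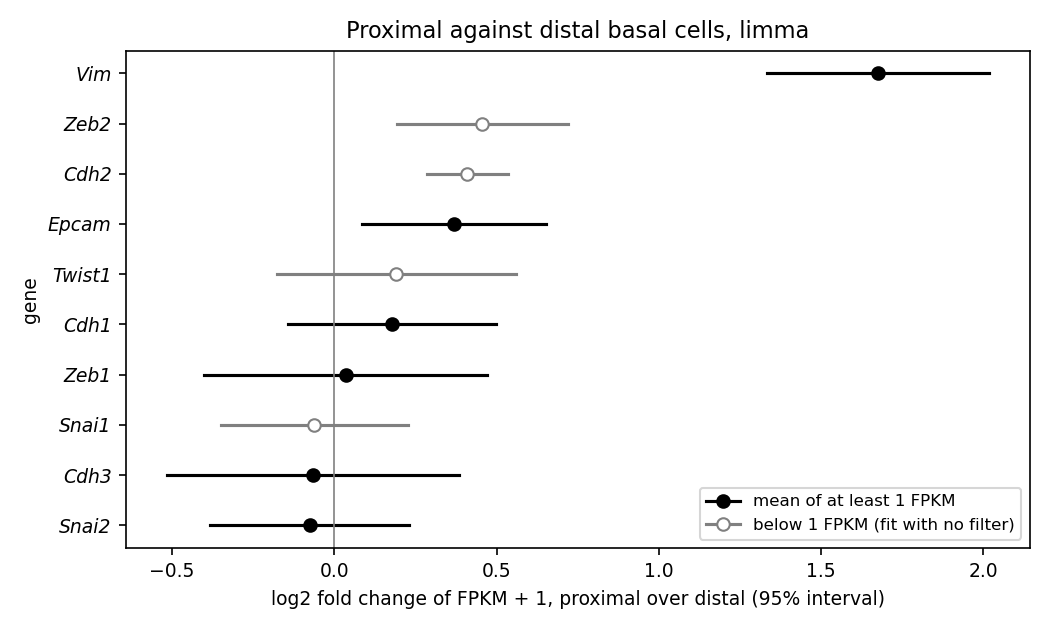
Log2 fold change of FPKM + 1 with its 95% interval for the 10 genes, proximal over distal, from limma. Filled points were tested in the main fit and open points come from the fit with no expression filter, since their mean was below 1 FPKM. Vim, at 1.67, stands to the right of the other 9, and the intervals of Cdh1, Cdh3, Snai1, Snai2, Twist1 and Zeb1 cross 0.

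Over the 10 genes, 4 had all proximal libraries above all distal ones, namely Vim, Epcam, Zeb2 and Cdh2, and none had the reverse. Among the 18567 genes of the unfiltered fit, 22.6% did not overlap in either direction and 12.2% had the proximal libraries on top. The 6 tested members had a median log2 fold change of 0.11, against -0.01 over all genes tested. By level the order was Cdh1, Epcam, Snai2, Cdh3, Vim and Zeb1 in both regions. In proximal cells the ranges of the neighbours Snai2 and Cdh3 overlapped, whereas in distal cells each of these 6 genes was clear of the next. The 4 genes below 1 FPKM ran in the order Zeb2, Cdh2, Twist1 and Snai1 in proximal cells, with each overlapping the next. In distal cells the order was Snai1, Zeb2, Twist1 and Cdh2, and only Cdh2 lay clear of its neighbour.

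The 5 genes whose centred log2 profile over the 6 libraries was nearest to that of Vim, of 6545 compared, were Cgref1, Igfbp7, Mall, Pcdh1 and Krt6b. Their root mean square differences from Vim were 0.11 to 0.17 on the log2 scale. Igfbp7, a secreted binding protein, was at 135, 117 and 123 FPKM in proximal and at 41.9, 29.7 and 41.4 FPKM in distal libraries. Krt6b, a stress keratin of stratified epithelia, was at 9.42, 9.87 and 11.8 FPKM in proximal and at 3.02, 2.49 and 3.10 FPKM in distal libraries. For Cdh1 the nearest profiles were those of Adgrg1, Smu1, Pptc7, Trmt11 and Trip11, at 0.03 to 0.05, and all 5 share its highest value in proximal replicate 2.

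Vim and Cdh2 are also genes of stromal cells, and in sorted bulk libraries fewer cells of a type and less RNA per cell cannot be told apart. Marker lists of several other cell types stood higher in the proximal libraries. Nerve and glia markers summed to 13.7, 20.8 and 15.4 FPKM in proximal and to 3.33, 5.78 and 4.07 FPKM in distal libraries, a 3.79-fold difference of means, and 3 of their 4 tested genes rose, Cdh19 among them, with none falling. Within the regions the order differed: proximal replicate 2 was the highest of its group for this list and for Vim, Cdh2, Zeb2 and Zeb1, whereas distal replicate 2 was the highest of its group for the list and the lowest for Vim, Cdh2 and Zeb2. In distal libraries Cdh2 lay at 0.0647 to 0.0683 FPKM, from 6 to 7 fragments, and Zeb2 at 0.112 to 0.245 FPKM. At such levels their lowest distal library cannot be told from counting error.

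Endothelial markers summed to 45.1, 40.8 and 30.5 FPKM in proximal and to 21.1, 7.34 and 11.3 FPKM in distal libraries, a 2.93-fold difference, and 6 of 10 tested genes rose (Eng, Emcn, Plvap, Tie1, Cdh5 and Kdr) with none falling. Emcn, a surface glycoprotein of endothelium, was at 5.81, 6.26 and 6.32 FPKM in the proximal libraries and at 2.89, 0.264 and 0.806 FPKM in the distal ones. Distal replicate 1 was the highest of its group for this list and for Vim, whereas proximal replicate 1 was the highest of its group for the list and the lowest for Vim. Each of these endothelial calls was lost without proximal replicate 2, distal replicate 2 or distal replicate 3, at an adjusted p of at most 0.165. None of the list was called with no expression filter. Pericyte markers differed 1.98-fold in their sum, with 2 of 4 tested genes higher, among them Pdgfrb at 1.93, 1.98 and 1.88 FPKM in the proximal libraries and 0.484, 0.779 and 0.582 FPKM in the distal ones. The call of Pdgfrb was lost without proximal replicate 2 or distal replicate 3 (adjusted p up to 0.0539), and that of Rgs5 without any 1 library other than proximal replicate 1 (adjusted p up to 0.141).

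Fibroblast markers had 4 of 8 tested genes higher and none lower. By library, 5 of the 8 lay wholly higher in proximal cells and 2, Dcn and Mfap5, wholly lower. Over all genes tested, 28.8% did not overlap in either direction and 15.8% had the proximal libraries on top. Mfap5 was at 1.12, 0.460 and 0.582 FPKM in proximal and at 1.61, 1.26 and 2.47 FPKM in distal libraries (limma, adjusted p = 0.0982). Col3a1, a fibrillar collagen, was at 16.6, 17.8 and 14.5 FPKM in proximal and at 7.51, 6.69 and 9.29 FPKM in distal libraries (limma, adjusted p = 0.00736). The calls of Col1a1, Col1a2 and Fbln1 were each lost on leaving out proximal replicate 2 or 3 or distal replicate 1 or 2, at an adjusted p of at most 0.179. The summed list lay below in proximal cells, at 687 to 758 FPKM against 773 to 815 FPKM in distal cells, and the proteoglycan gene Dcn alone made up 93.1% to 96.8% of it. Without Dcn, a choice made after seeing its level, the sum was 46.0 to 50.9 FPKM in proximal and 26.0 to 35.5 FPKM in distal libraries, a 1.63-fold difference of means. Smooth muscle markers, 7 tested and none called, summed to 270 to 277 FPKM in proximal and 244 to 302 FPKM in distal libraries. Immune markers, 3 tested and none called, summed to 18.6 to 30.6 FPKM in proximal and 18.2 to 31.2 FPKM in distal libraries. No list had all of its genes at 0, and of the defining markers only Cd3e among the immune genes was listed at 0 in all proximal libraries.

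Per unit of 7 such sums (fibroblast with and without Dcn, smooth muscle, pericyte, endothelial, immune, and nerve and glia), Vim lay wholly higher in proximal libraries for 5 and overlapped for 2, the endothelial and the nerve and glia sums. Cdh2 lay wholly higher for 6 and overlapped for the endothelial sum, and Zeb2 lay wholly higher for 5 and overlapped for the same 2 as Vim. Zeb1 lay wholly lower for 4 and overlapped for 3. The 7 sums are not separate measures, since the fibroblast genes enter with and without Dcn. The fibroblast sum with Dcn, the smooth muscle sum and the immune sum were mostly Dcn, Smtn and Cd74, respectively. None of those sums lay wholly higher in proximal libraries, so ratios to them largely repeat the difference of the member itself. Vim per summed fibroblast marker without Dcn was 0.484, 0.537 and 0.515 in proximal and 0.313, 0.219 and 0.203 in distal libraries, with no overlap. Vim per summed pericyte marker was 2.88, 3.30 and 2.58 in proximal and 2.42, 1.32 and 1.42 in distal libraries, also with no overlap. The endothelial and glial ratios did overlap. Vim per summed endothelial marker was 0.512, 0.669 and 0.775 in proximal and 0.400, 0.775 and 0.637 in distal libraries. Vim per summed nerve and glia marker was 1.69, 1.31 and 1.54 in proximal and 2.53, 0.985 and 1.78 in distal libraries. Cdh2 per summed nerve and glia marker was 0.0282, 0.0249 and 0.0228 in proximal and 0.0206, 0.0112 and 0.0164 in distal libraries, with no overlap. The distal Cdh2 values correspond to only 7, 7 and 6 fragments. The narrow gap from 0.0206 to 0.0228 therefore cannot be told from counting error. Whether the Vim, Cdh2 and Zeb2 transcripts came from basal cells or from cells of these types was not tested.

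**Figure D3:**
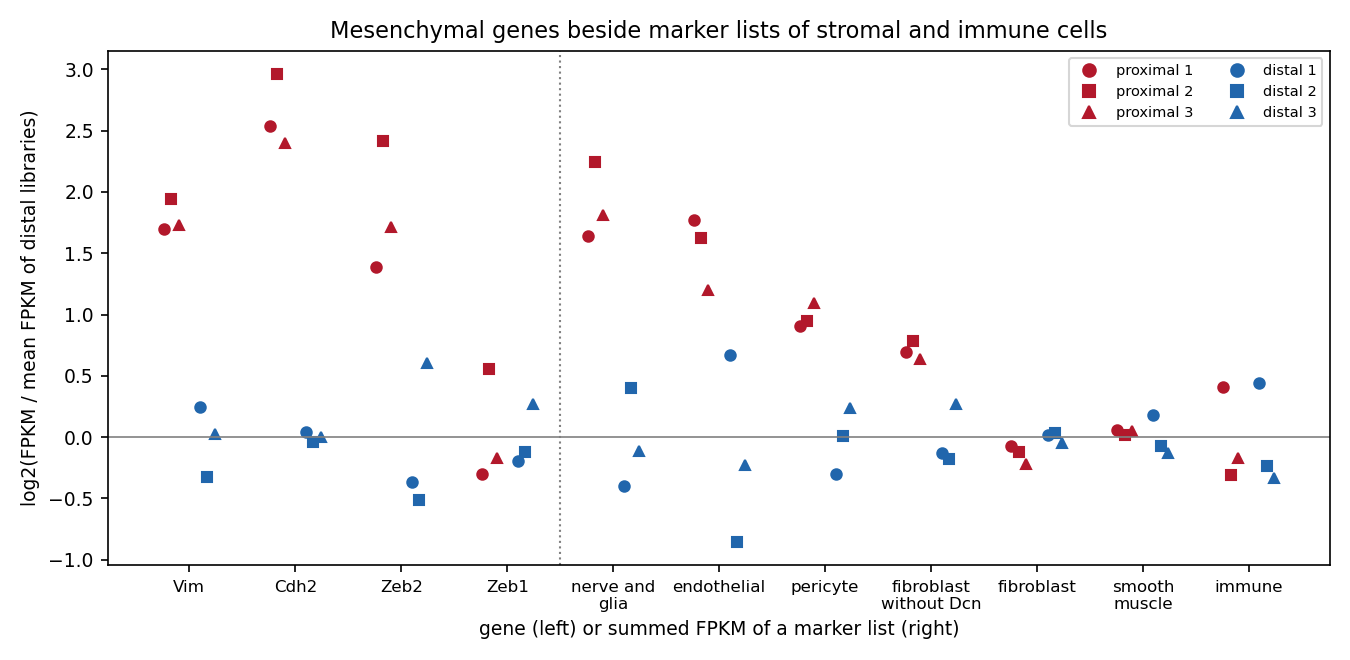
Vim, Cdh2, Zeb2 and Zeb1 (left of the dotted line) and summed marker lists of stromal, glial, endothelial and immune cells (right of it), as log2 of FPKM over the mean of the distal libraries, proximal (red) left of distal (blue). Vim and Cdh2 are higher in all proximal libraries, as are the nerve and glia, endothelial and pericyte sums, with ratios of means of 3.79, 2.93 and 1.98, whereas smooth muscle and immune sums overlap.

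Other genes that accompany the mesenchymal state were described from lists chosen by function. Of 12 tested mesenchymal effectors, 4 rose, none fell and 8 did not pass, with a median log2 fold change of 0.48. Postn, a matrix protein of fibroblasts and periosteum, was at 10.6, 14.1 and 11.3 FPKM in proximal and at 2.21, 2.88 and 2.19 FPKM in distal libraries (limma, adjusted p = 0.000528). Tnc, the matrix protein tenascin C, was at 4.08, 8.18 and 7.90 FPKM in proximal and at 1.33, 1.45 and 1.52 FPKM in distal libraries (limma, adjusted p = 0.00652). Itga5, the fibronectin receptor subunit, and S100a4, a calcium-binding protein used as a fibroblast marker, had log2 fold changes of 0.86 and 1.38. Fn1 itself, encoding fibronectin, averaged 6.75 ± 1.49 FPKM in proximal cells against 5.67 ± 1.02 FPKM in distal ones (SD, n = 3 each) and did not pass (limma, adjusted p = 0.534). Nerve and glia, endothelial and fibroblast markers stood higher in the same libraries, as given above, and their part in these values was not tested. Of the filament genes most like Vim, Des, Nes and Synm were tested and none was called.

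Of 5 other mesenchymal transcription factors tested, none was called, and all had log2 fold changes below 0, with a median of -0.17. The fit with no expression filter added 5 weaker ones, of which Foxf1, a forkhead factor of mesenchyme, rose (log2 fold change 0.90 ± 0.16 SE, limma, adjusted p = 0.0414). Foxf1 was at 1.96, 1.32 and 1.24 FPKM in the proximal libraries and at 0.507, 0.381 and 0.142 FPKM in the distal ones. The proximal values of Foxc2 also lay above the distal ones, with means of 1.35 ± 0.389 FPKM in proximal cells and 0.624 ± 0.0938 FPKM in distal ones (SD, n = 3 each), but it did not pass (limma, adjusted p = 0.121). Snai3, the third Snail family gene, averaged 13.7 ± 6.87 FPKM in proximal cells and 15.5 ± 3.86 FPKM in distal ones (SD, n = 3 each), well above Snai1. Of 10 tested epithelial factors, 1 fell, none rose and 9 did not pass. Grhl1, a grainyhead-like factor of epithelial barriers, was at 19.9, 17.5 and 16.0 FPKM in proximal and at 25.4, 28.6 and 26.3 FPKM in distal libraries (limma, adjusted p = 0.0269), a call lost on leaving out replicate 2 or 3 of either region (adjusted p up to 0.133). The splicing regulators Esrp1 and Esrp2 did not pass (limma, adjusted p = 0.205 and 0.0761).

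None of 11 tested catenin, plakoglobin, vinculin, afadin and nectin genes was called. Ctnnb1, which encodes beta-catenin, averaged 231 ± 19.3 FPKM in proximal cells and 188 ± 11.7 FPKM in distal ones (SD, n = 3 each). Ctnna1, which encodes alpha-catenin, averaged 239 ± 3.71 FPKM in proximal cells and 215 ± 5.57 FPKM in distal ones (SD, n = 3 each). Among the other 20 cadherins listed, 4 were tested, 3 rose and none fell. Cdh13, a cadherin held to the membrane by a lipid anchor, was at 30.5, 33.9 and 27.9 FPKM in proximal and at 16.4, 20.8 and 17.2 FPKM in distal libraries (limma, adjusted p = 0.0139). Its call was lost without proximal replicate 2 or distal replicate 3 (adjusted p up to 0.0737). Cdh19, a cadherin of Schwann cell precursors, was at 1.98, 2.41 and 1.97 FPKM in the proximal libraries and at 0.289, 0.451 and 0.373 FPKM in the distal ones (limma, adjusted p = 0.00327). Cdh5, the cadherin of endothelium, was at 1.69, 1.92 and 1.57 FPKM in the proximal libraries and at 0.906, 0.143 and 0.427 FPKM in the distal ones (limma, adjusted p = 0.0385), a call lost on leaving out any proximal library or distal replicate 2 or 3 (adjusted p up to 0.144). Cdh19 and Cdh5 belong to the glial and endothelial marker lists, whose sums are given above.

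Of 11 tested partners of Epcam and other epithelial surface genes, 2 rose, 1 fell and 8 did not pass. Prss8, which encodes the membrane protease prostasin, was at 16.5, 14.0 and 15.6 FPKM in proximal and at 6.90, 6.11 and 6.23 FPKM in distal libraries (limma, adjusted p = 0.00147). Spint1, an inhibitor of such proteases, rose with a log2 fold change of 0.63 (limma, adjusted p = 0.0376), a call lost on leaving out any proximal library or distal replicate 2 or 3 (adjusted p up to 0.162). Cldn1, a tight junction claudin, fell by 0.52 on the log2 scale (limma, adjusted p = 0.0402), a call lost without any 1 of the 6 libraries (adjusted p up to 0.147) and under median-ratio or quantile scaling (adjusted p = 0.0627 and 0.0619).

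**Figure D4:**
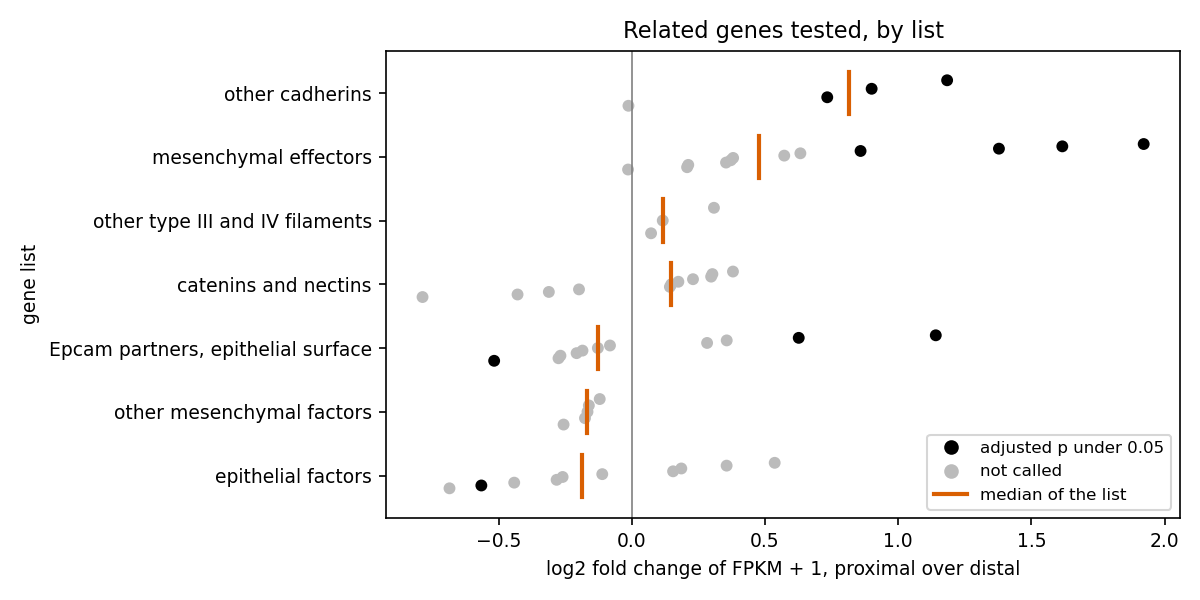
Log2 fold changes of FPKM + 1, proximal over distal, of the tested genes in 7 lists of related genes, 1 point per gene, with black points called at an adjusted p under 0.05 and an orange bar at each list's median. The medians of other cadherins (0.82) and mesenchymal effectors (0.48) lie above 0, and those of other mesenchymal factors (-0.17) and epithelial factors (-0.19) lie below it.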

How the data were processed

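RNA-seq of 6 libraries of sorted mouse prostate basal cells was used, 3 proximal and 3 distal by the labels. Per the submitters' processing notes, bcl2fastq 1.8.3, TopHat and Cufflinks were run on mm10. TopHat and Cufflinks versions and the annotation are not given in the sources used here. Per the file headers, the authors deposited FPKM with an interval for 63241 transcripts of each library. The deposited coverage signal, not scaled to depth, was not used.

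The files name no genes, so transcripts were matched to GENCODE M21 (GRCm38) by locus and length. A gene was assigned where overlap of the loci times the ratio of lengths reached 0.5 and no rival gene reached 0.8 of that score. Otherwise exons of 1 gene had to cover 0.8 of the length, and any other gene at most 0.1. This matched 53323 transcripts, 93.9% of the FPKM, and FPKM were summed per gene. Exact zeros can be failed estimates. The protocols do not state whether strand was kept.

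Gene sums averaging 1 FPKM or more entered limma 3.58.1 under R 4.3.3 as log2(FPKM + 1) (lmFit, eBayes with a variance trend, two-sided, no covariates), with Benjamini-Hochberg adjustment over all tested genes. The matching and the fit were checked on simulated data. Depth was derived from interval widths of transcripts of at least 3000 bases that overlap no other, taking the width as counting error. The intervals do not cover the spread between libraries. For Cdh1 the widths correspond to 2267 to 2288 fragments at 612 to 853 FPKM, so the width is not counting error alone for every transcript. Named are all 10 members, up to 4 called genes of each list, the most abundant stromal markers and the 5 profiles nearest to Vim and Cdh1. Fn1, Ctnnb1, Ctnna1, Snai3, Des, Nes, Synm, Esrp1, Esrp2, Krt14, Krt18 and Cd3e were named as relatives, partners or identity checks. Foxf1, Foxc2, Mfap5 and Cd74 were named after their values were seen. Some list genes that this rule would name are not reported here. Members and lists were chosen with earlier results of these data known.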

Additional observations from a re-analysis of the deposited data

How the results depend on the processing

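Vim kept its direction and its call in all 15 alternative settings (log2 fold change 1.54 to 1.83, adjusted p up to 0.00775). Cdh1, Cdh3 and Snai2 passed in none of 15, and Zeb1 in none of the 14 in which it was tested. The count of members higher was 1 in the main test and 2 with no expression filter, which adds Cdh2, and 2 under quantile normalisation, with the replicate block and without both libraries numbered 1, each of which adds Epcam. Leaving out 1 library gave 192 to 550 genes higher and 45 to 614 lower. The labels do not say whether equal replicate numbers pair libraries. Deviations from the group means correlated at 0.38, 0.04 and 0.29 for numbers 1, 2 and 3, and proximal replicate 2 correlated best with distal replicate 3. With 3 libraries per group these correlations are not independent and cannot decide whether libraries were paired. With the replicate block 881 genes were higher and 736 lower, and Epcam had an adjusted p of 0.0360. Other counts that moved were 137 lower with no expression filter, 273 higher and 168 lower at a mean of at least 5 FPKM, and 881 higher and 1328 lower without both libraries numbered 1. The share of calls that were higher, 64.4% in the main test, was 39.9% without both libraries numbered 1. The cause was not tested. For the members below 1 FPKM, settings were added after seeing the data, and Cdh2 passed in 7 of 11, Zeb2, Snai1 and Twist1 in none. Interval widths correspond to 6 to 53 fragments per library for Cdh2 and 4 to 16 for Snai1, which limits the precision of both.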
